A study of Homo sapiens with 11 samples.

Results

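The regions described here lie inside genes but away from their ends. They are called peaks, regions where CUT&RUN reads pile up, whose summit (the position of the highest pile-up) fell within the span of any RefSeq gene and more than 1000 bp from every end of a protein-coding gene. Chromosomes 1 to 18, 20 to 22 and X were used, without the short arms of the acrocentric chromosomes 13, 14, 15, 21 and 22. Of the 5435 regions in the 5 deposited lists, 4107 lay on these chromosomes and 884 met the rule. The rule used position only, and did not use fold enrichment, overlap with other lists or sequence. The gene table gives spans only, so exons, introns and UTRs were not distinguished.

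All 11 libraries came from HEK293T cells, an established line from human embryonic kidney with the large T antigen of SV40. In CUT&RUN an antibody directs a nuclease to its target in permeabilised cells, and the DNA cut free is sequenced. The FLAG epitope was targeted with a mouse antibody in cells labelled edit_myc_FLAG and in cells labelled myc_FLAG, and myc without a tag was targeted with a rabbit antibody in the endog_myc libraries, with 3 libraries each. What "edit" stands for, how the tagged protein was expressed and whether a line was 1 clone are not given in the labels. Mouse IgG (ms_IgG) and rabbit IgG (rbt_IgG), which have no target in these cells, gave 1 library each and show the background. Each of the 3 target lists (edit_myc_FLAG, myc_FLAG and endog_myc) merges its 3 libraries and the files give no read counts, so depth is unknown and no value carries a spread between replicates. Tests below count regions within 1 list, their p-values do not cover replicates, and intervals are 95% Wilson intervals for counting error.

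The transcription factor MYC binds DNA paired with MAX. The dimer recognises the E-box, whose core is CACGTG, and is best known at the promoters of genes for growth, ribosome production and metabolism. A protein-coding gene often has several start sites, and an alternative start can lie far inside the span of its longest transcript, so a region inside a gene can still lie at a promoter. The CCAAT box, bound by the factor NF-Y, is a common element just before such starts. DNA inside genes also holds repeats, gene-family copies and nuclear copies of mitochondrial DNA, to which reads from elsewhere in the genome can map.

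The sequences below come from internal starts, because many of the regions inside genes lay at an annotated start. Each is the 250 bases before an annotated start of a protein-coding gene, read 5′ to 3′ along the gene from RefSeq on GRCh38.p14, with capitals for CCAAT (or ATTGG, the same box on the other strand) and CACGTG. Regions of edit_myc_FLAG outside both IgG lists that overlapped a region inside a gene in each other target list covered 7 such windows. Of these, 5 are shown first. The other two are described in words only: that of PIK3R3 held 2 CCAAT boxes, and that of SLC4A8 held neither motif. The 5 shown are FAM117A at chr17:49764132-49764381 (minus strand), CHD9, a chromodomain helicase, at chr16:53130762-53131011 (plus strand), TRAF2, an adaptor of tumour necrosis factor receptors, at chr9:136886266-136886515 (plus strand), TEDC1, part of a tubulin complex, at chr14:105490996-105491245 (plus strand), and TEF, a leucine zipper transcription factor, at chr22:41381692-41381941 (plus strand). The last, at chr21:37366523-37366772 (plus strand), belongs to DYRK1A, a protein kinase, and is shown because it holds an E-box and no CCAAT box. Its E-box lies within the endog_myc region at chr21:37366475-37366781 and outside the edit_myc_FLAG region at chr21:37366677-37366892, which covers 96 of the 250 bases. That edit_myc_FLAG region also overlaps a myc_FLAG region and counts among the 38 in all 3 lists. The myc_FLAG region was not among those inside genes, so the window is not among the 7.
FAM117A: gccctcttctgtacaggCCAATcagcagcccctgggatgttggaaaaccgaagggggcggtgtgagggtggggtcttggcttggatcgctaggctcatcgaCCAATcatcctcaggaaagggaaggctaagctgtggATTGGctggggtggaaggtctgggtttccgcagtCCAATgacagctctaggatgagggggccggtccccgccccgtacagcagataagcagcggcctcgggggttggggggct
CHD9: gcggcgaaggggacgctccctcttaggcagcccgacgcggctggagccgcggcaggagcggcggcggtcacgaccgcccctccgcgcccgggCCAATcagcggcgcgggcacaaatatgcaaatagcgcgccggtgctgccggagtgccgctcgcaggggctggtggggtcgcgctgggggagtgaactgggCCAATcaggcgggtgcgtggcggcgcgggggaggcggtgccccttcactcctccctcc
TRAF2: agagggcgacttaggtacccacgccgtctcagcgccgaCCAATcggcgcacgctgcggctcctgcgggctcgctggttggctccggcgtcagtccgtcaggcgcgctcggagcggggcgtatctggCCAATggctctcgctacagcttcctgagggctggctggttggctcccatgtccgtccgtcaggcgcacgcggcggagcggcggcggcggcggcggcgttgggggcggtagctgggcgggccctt
TEDC1: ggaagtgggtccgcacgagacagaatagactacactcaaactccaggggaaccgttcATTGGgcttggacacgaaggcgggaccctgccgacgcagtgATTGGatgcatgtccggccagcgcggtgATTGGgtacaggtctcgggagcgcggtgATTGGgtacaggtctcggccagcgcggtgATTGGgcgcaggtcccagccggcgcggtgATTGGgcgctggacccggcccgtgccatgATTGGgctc
TEF: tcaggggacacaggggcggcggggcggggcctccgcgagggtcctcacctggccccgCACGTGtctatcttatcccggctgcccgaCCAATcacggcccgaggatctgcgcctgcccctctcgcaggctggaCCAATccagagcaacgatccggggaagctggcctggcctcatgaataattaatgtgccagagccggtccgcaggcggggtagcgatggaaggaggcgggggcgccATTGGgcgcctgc
DYRK1A: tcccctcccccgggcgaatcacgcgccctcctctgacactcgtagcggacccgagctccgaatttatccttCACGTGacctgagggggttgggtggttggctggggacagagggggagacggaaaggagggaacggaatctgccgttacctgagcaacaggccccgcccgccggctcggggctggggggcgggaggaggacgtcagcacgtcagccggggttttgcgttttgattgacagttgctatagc
FAM117A held 4 CCAAT boxes, CHD9 and TRAF2 held 2 each, TEDC1 held 7, and TEF held 3 beside its E-box. The 7 boxes of TEDC1 all read ATTGG on the printed strand.

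Regions inside genes made up 459 of 1735 edit_myc_FLAG regions (26.5%, interval 24.4 to 28.6%). The share was 18.0% in myc_FLAG (170 of 942, interval 15.7 to 20.6%) and 17.1% in endog_myc (172 of 1003, 14.9 to 19.6%). The IgG lists, with no specific antibody, had 39 of 215 in ms_IgG (18.1%, 13.6 to 23.8%) and 44 of 212 in rbt_IgG (20.8%, 15.8 to 26.7%). The edit_myc_FLAG list was the longest and had the highest share, although its interval overlapped that of rbt_IgG. Positions that meet the rule cover 1585 Mb, and their share of these chromosomes was not worked out. No preference for or against the insides of genes can therefore be read from these shares. Of the other regions, 1035 lay within 1000 bp of a protein-coding gene end, 964 lay outside genes but within 100 kb of one (near gene), and 1224 lay farther away (gene-poor).

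Most edit_myc_FLAG regions inside genes were found in that list alone. Outside IgG, 320 of its 459 regions were in no other target list, 38 were in all 3, 25 were shared with myc_FLAG only and 32 with endog_myc only. In myc_FLAG, 37 of 170 regions were in all 3 lists, 23 were shared with edit_myc_FLAG only, 10 with endog_myc only and 55 were in that list alone. In endog_myc, 37 of 172 were in all 3, 29 were shared with edit_myc_FLAG only, 9 with myc_FLAG only and 52 were alone. Outside IgG describes the region counted, and a region that it overlaps in another list can itself touch IgG. Joined over the target lists, 34 loci lay outside IgG and in all 3. Between 44 and 45 regions of each target list overlapped an IgG region, so background regions were about equally many in lists of unequal length.

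**Figure D1:**
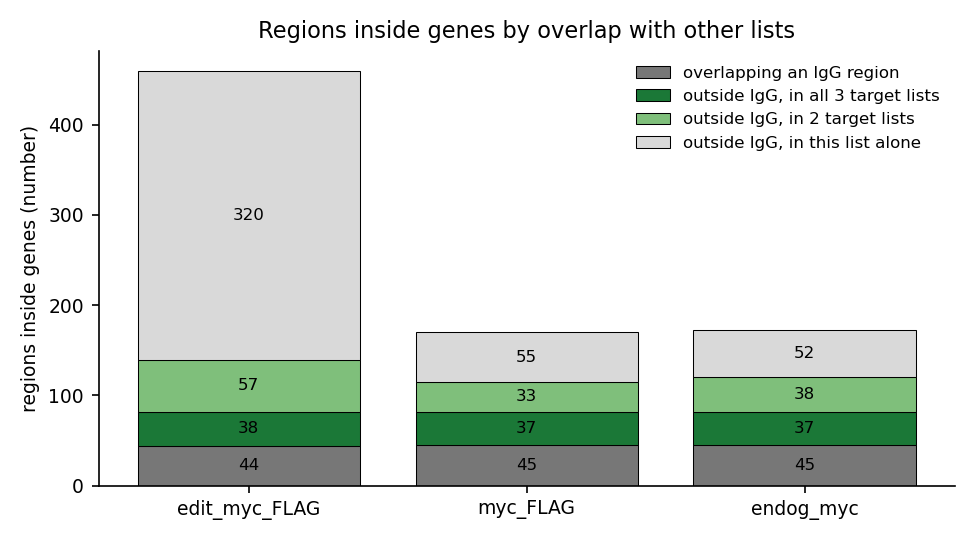
Number of regions inside genes (y axis) in each target list (x axis), stacked by overlap with the IgG lists and with the other target lists. The dark grey base is nearly equal in height in the 3 lists (44, 45 and 45 regions), and the 320 regions found in edit_myc_FLAG alone make up most of that list.

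The authors' fold enrichment had a median of 5.16 over the edit_myc_FLAG regions, 5.32 in myc_FLAG and 5.36 in endog_myc. Within edit_myc_FLAG the median was 7.14 for the 44 regions overlapping IgG, 6.01 for the 38 in all 3 lists and 5.03 for the 320 in that list alone. The same order held in myc_FLAG (6.64, 5.53 and 4.83) and endog_myc (6.75, 6.40 and 4.72): background regions were highest and unshared ones lowest. Taking a −log10 q (the caller's significance) of 5 as a minimum kept 166 of the 459 regions in edit_myc_FLAG (36.2%). It kept 86 of 170 in myc_FLAG (50.6%) and 94 of 172 in endog_myc (54.7%). Summits of overlapping regions lay close together, with a median distance of 71 bp between edit_myc_FLAG and myc_FLAG over 63 pairs, 41.5 bp between edit_myc_FLAG and endog_myc over 70 and 47 bp between myc_FLAG and endog_myc over 47.

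The first comparison asked how much of the signal inside genes also appears without a specific antibody. Regions inside genes overlapped IgG regions more often than regions at gene ends did, and less often than intergenic regions near genes did, in each of the 3 target lists. In edit_myc_FLAG, 44 of 459 regions (9.59%, interval 7.22 to 12.6%) overlapped an IgG region, against 14.2% of all regions of that list on these chromosomes. By Fisher's exact test, gene ends were at 1.498% (adjusted p = 3.19e-09), near-gene regions at 28.0% (adjusted p = 1.93e-11) and gene-poor regions at 29.6% (adjusted p = 1.89e-11). By the same exact test in myc_FLAG, 45 of 170 regions (26.5%, 20.4 to 33.6%) overlapped IgG, against 26.6% of all its regions, 3.61% at gene ends (adjusted p = 5.47e-10), 48.1% near genes (adjusted p = 2.89e-05) and 26.9% in gene-poor DNA (adjusted p = 1). By the same exact test in endog_myc, 45 of 172 regions (26.2%, 20.2 to 33.2%) overlapped IgG, against 24.8% of all its regions, 3.10% at gene ends (adjusted p = 1.93e-11), 43.3% near genes (adjusted p = 6.11e-04) and 26.3% in gene-poor DNA (adjusted p = 1). These are two-sided Fisher's exact tests with Benjamini-Hochberg adjustment over 9. With only regions of −log10 q of at least 5, the difference from near-gene regions lost its call by the exact test in myc_FLAG (adjusted p = 0.178) and endog_myc (adjusted p = 0.0980).

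The second comparison asked whether regions inside genes recur between target lists once IgG regions are set aside. By Fisher's exact test, in edit_myc_FLAG 95 of 415 regions (22.9%) overlapped another target list, against 32.7% of all its regions outside IgG, 29.9% at gene ends (adjusted p = 0.0428), 30.9% near genes (adjusted p = 0.0560) and 61.6% in gene-poor DNA (adjusted p = 1.46e-20). By exact test, in myc_FLAG 70 of 125 (56%) did, against 64.7% of all, 72.2% at gene ends (adjusted p = 0.0160), 68.2% near genes (adjusted p = 0.107) and 62.1% in gene-poor DNA (adjusted p = 0.304). By exact test, in endog_myc 75 of 127 (59.1%) did, against 61.7% of all, and none of the 3 differences passed (adjusted p = 0.304 against gene ends and near-gene regions, 0.747 against gene-poor). Sharing was lower inside genes than at gene ends in both FLAG lists by this test, but both calls were lost under several other settings. With an overlap of 50% of the shorter region, for example, the adjusted p was 0.170 in both, and with IgG regions kept the edit_myc_FLAG difference went from -7.01 to -0.33 percentage points.

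**Figure D2:**
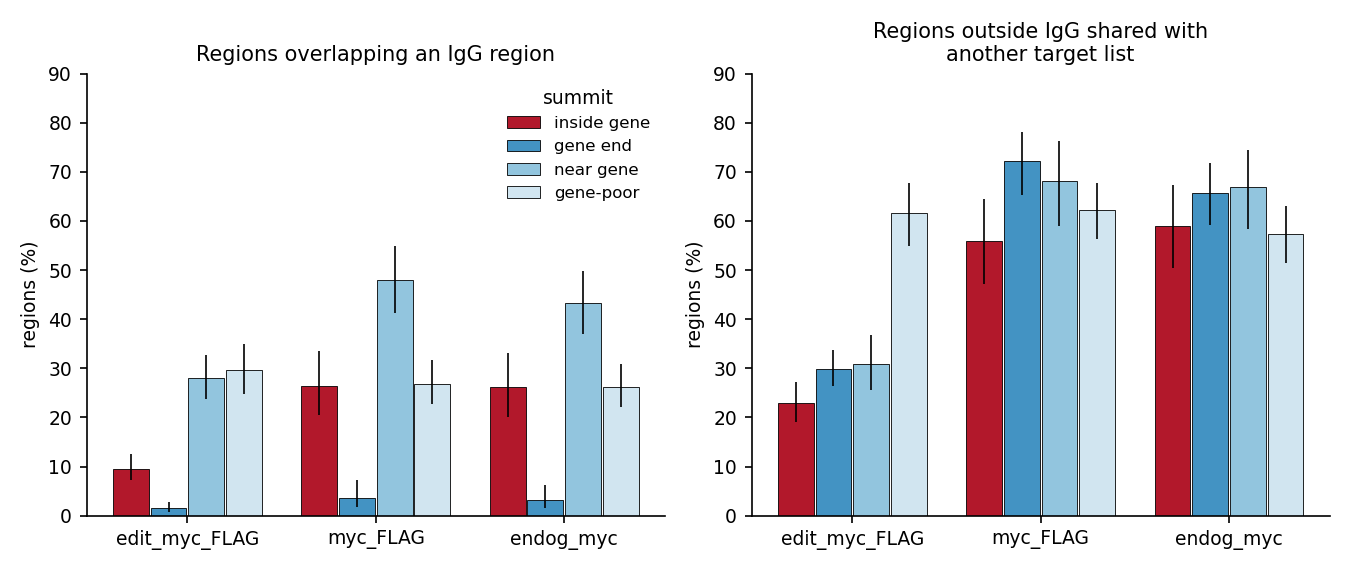
Share of regions (y axis, %) overlapping an IgG region (left) and, outside IgG, shared with another target list (right), by location of the summit in each target list; bars are shares and lines are 95% Wilson intervals. On the left, regions inside genes (red) stand above gene ends in the 3 lists; on the right, the edit_myc_FLAG gene-poor bar (61.6%) stands far above its inside-gene bar (22.9%).

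The strongest region outside IgG that all 3 target lists held lay in COL23A1, which encodes a transmembrane collagen, at chr5:178585535-178585741. Its fold was 20.6 in edit_myc_FLAG, 21.7 in myc_FLAG and 22.2 in endog_myc, a narrow range. In FOXK2, a forkhead transcription factor, the region at chr17:82586211-82586524 had folds of 18.1, 12.9 and 16.2 in the same order of lists, highest in edit_myc_FLAG. RTEL1, a DNA helicase that maintains telomeres, held a region at chr20:63693475-63693720 with folds of 17.2, 13.5 and 12.2. It lay 2686 bp from the nearest protein-coding gene end in edit_myc_FLAG.

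BTNL9, a butyrophilin-like gene, showed the widest spread, with 16.9 in edit_myc_FLAG, 9.19 in myc_FLAG and 7.11 in endog_myc at chr5:181045836-181046254. The long non-coding RNA LOC124902179 went the other way at chr9:70038199-70038456, with 8.89, 13.1 and 13.1. CPNE7, a copine that binds membranes in response to calcium, had 8.85, 6.39 and 6.40. NCOA2, a nuclear receptor coactivator, had 7.53, 5.85 and 8.68. RAB11FIP3, an effector of endosome recycling, had 6.56, 8.61 and 7.53, and AHRR, a repressor of the aryl hydrocarbon receptor, had 7.94, 5.07 and 7.15. These last 2 regions were at chr16:494810-495016 and chr5:415401-415696.

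The remaining named regions of all 3 lists were of different kinds. FAM117A (7.62, 6.12 and 8.95) and CHD9 (7.09, 5.74 and 6.91) lay at the internal starts printed above, with summits 31 and 291 bp from them in edit_myc_FLAG. DUX4L34, a copy of the DUX4 retrogene family, had 8.09, 6.02 and 6.56 at chr20:29411193-29411538. Of these 12 regions, 10 had a protein-coding host, 2 lay at an annotated start and 6 lay within 1 Mb of the outermost annotated gene of their chromosome. The fold was highest in edit_myc_FLAG in 7 of the 12 and lowest in myc_FLAG in 7. Folds of different lists come from separate peak calls, so differences between lists carry no test.

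**Figure D3:**
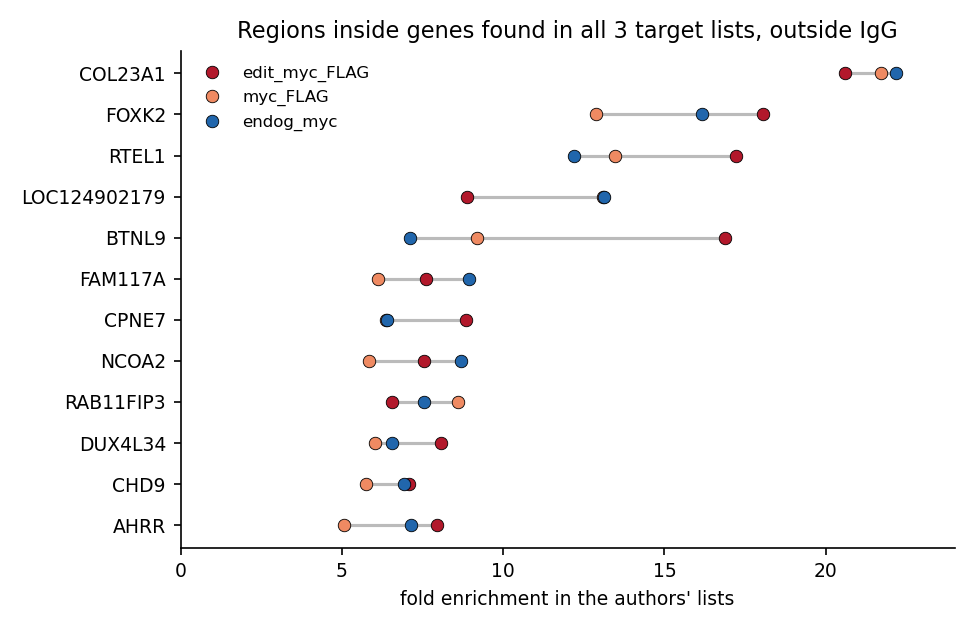
The authors' fold enrichment (x axis) in each target list (colours) for the 12 regions inside genes with the highest mean rank of fold among those in all 3 lists and outside IgG, named by host gene (y axis). COL23A1 lies above 20 in the 3 lists, while BTNL9 runs from 7.11 to 16.9.

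Regions found in 1 target list alone mostly had low folds, with an exception. The myc_FLAG region in RGPD2, a RANBP2-like gene of a multigene family, at chr2:87824890-87825189 had a fold of 27.4 and a −log10 q of 106.6, the highest fold of any region inside genes outside IgG. The next highest of myc_FLAG alone were LOC105379362 (7.56), ST6GALNAC5, a sialyltransferase (7.41), and NEMP1, a nuclear envelope protein (7.11). In edit_myc_FLAG alone they were RIMBP2, a presynaptic scaffold (12.9), CFAP61, a protein of cilia (10.2), FRG1-DT (8.89) and AP2A2, a subunit of the endocytic AP-2 adaptor (8.64). In endog_myc alone they were PPFIA1, a liprin (7.08), LINC02018 (6.72), OSBPL9, an oxysterol-binding protein relative (6.67), and LOC100996294 (6.23). Apart from RGPD2, the highest fold of an unshared region was 12.9, in edit_myc_FLAG.

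Some of the strongest regions were in both FLAG lists and not in endog_myc, a pattern picked out after the values were seen. In CACNA1C, a calcium channel subunit, the region at chr12:2255852-2256069 had folds of 15.3 in edit_myc_FLAG and 12.3 in myc_FLAG. MTRNR2L12, a pseudogene related to the mitochondrial MT-RNR2 gene, had 13.2 and 22.2 at chr3:96617784-96618001. FRG1-DT, the divergent transcript of FRG1, had 10.5 and 10.1 at chr4:189881285-189881460. These are the 3 highest of the 24 edit_myc_FLAG regions that overlapped a region inside a gene in myc_FLAG and none in endog_myc. Of the 31 shared in the same way with endog_myc and not myc_FLAG, the highest were LOC101929823 (9.62 and 6.51, where the wider endog_myc region also touched a myc_FLAG region), another FRG1-DT region (9.09 and 8.65) and MICAL3, an actin-oxidising enzyme (8.22 and 5.58). The mouse antibody against FLAG was common to both FLAG lists, and its part in these regions was not tested. Neither IgG list held any of these regions.

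Ranked by edit_myc_FLAG fold alone, the 5 highest regions that both IgG lists also held lay in IGK, SERINC2, DUX4L26, FAM230C and DUX4. Other regions overlapping IgG ranked higher in the other target lists, with folds up to 21.2 in myc_FLAG and 18.2 in endog_myc. At chr2:89820008-89820507 in IGK, the immunoglobulin kappa locus, the fold was 18.4 in edit_myc_FLAG, 17.4 in myc_FLAG and 16.1 in endog_myc, against 9.11 in ms_IgG and 11.5 in rbt_IgG. SERINC2, a serine incorporator, had 18.1, 10.4 and 9.98 against 5.42 and 6.30 at chr1:31431781-31432181. DUX4L26, another DUX4 relative, had 17.5, 15.1 and 14.8 against 12.9 and 14.1 at chr3:75668908-75669620. FAM230C had 14.7, 13.8 and 12.8 against 8.69 and 6.49. DUX4 itself, at chr4:190179136-190180002, had 13.5, 13.98 and 11.7 against 8.72 and 12.4. In each of these 5 loci all 5 lists had a region, and the IgG fold was below that of the target lists except at DUX4, where 12.4 in rbt_IgG exceeded 11.7 in endog_myc. In all, 23 edit_myc_FLAG regions overlapped members of both IgG lists.

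Several hosts held regions of both target and IgG lists. IGK held 10 regions in edit_myc_FLAG, 10 in myc_FLAG, 9 in endog_myc, 6 in ms_IgG and 9 in rbt_IgG, all between 89811725 and 89840559 on chromosome 2, although the locus spans 1378 kb. Of these, 8, 7 and 7 in the target lists overlapped IgG. DUX4 and its relatives held 8, 6 and 6 regions in the target lists and 4 and 3 in the IgG lists. Of the target regions 4, 3 and 3 overlapped IgG, while those in DUX4L34, DUX4L25 and DUX4L13 lay outside IgG in each target list. The 3 nuclear copies of mitochondrial genes at the start of chromosome 1 (MTND2P28, MTCO1P12 and MTATP6P1) held 4 regions in each of the 5 lists, with folds no higher than 7.71 but very high significance. All of these overlapped IgG. Copies inside AKAP6 (MTCO1P2) and PCBD2 (MTND5P11) held regions in myc_FLAG and endog_myc that lay outside IgG, as did MTRNR2L12 in both FLAG lists. At MTATP6P1 the fold was 7.71, 5.95 and 6.39 in the target lists and 6.25 and 6.38 in the IgG lists, and its −log10 q of 890 in myc_FLAG was the highest among regions inside genes. Reads from mitochondrial DNA can map to such copies, and the sources used here do not say how reads with several mapping places were treated. In these 3 genes the IgG and target folds overlapped in range.

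TTC34, a tetratricopeptide gene near the end of chromosome 1, had the most separate regions of any host. Its 11 separate loci over the target lists lay between 2652226 and 2759066, made of 12 edit_myc_FLAG, 8 myc_FLAG and 9 endog_myc regions with folds from 3.17 to 7.64. Only 3 of the 11 loci overlapped IgG, and 6 were in all 3 target lists. PTPRN2, a receptor-type phosphatase of secretory vesicles, had 7 loci in 1049 kb and PCBP3, an RNA-binding protein, had 5 in 298.7 kb. C1QTNF3 and DLGAP2 had 4 each, and all 4 in DLGAP2 came from edit_myc_FLAG alone, with folds from 4.57 to 6.58. TTC34 held 6.68 loci per 100 kb, against 0.667 in PTPRN2 and 1.67 in PCBP3.

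Genes of 4 functional lists were searched for such regions, and the share over all protein-coding genes is given beside the counts. None of the 13 MAX network genes held a region inside the gene in any list, and a count of 0 allows a share of up to 23.1%. None of the 23 ribosome biogenesis genes tested did (up to 13.04%), nor any of the 23 chromatin regulators (up to 13.04%). Over all 18392 protein-coding genes tested, 279 held an edit_myc_FLAG region (1.52%), 98 a myc_FLAG region (0.533%) and 107 an endog_myc region (0.582%), so a count of 0 in a list of this size is near the background. Of 31 very long genes of neuronal adhesion and fragile sites, 1 held a region (3.23%). It was GPC6, a glypican, with a fold of 5.07 in edit_myc_FLAG alone at chr13:94303068-94303233. These 31 genes span 47.38 Mb, so a share per gene is not their only background. Over all positions that meet the rule, edit_myc_FLAG had 28.96 regions per 100 Mb, myc_FLAG 10.72 and endog_myc 10.85. By length, 1 edit_myc_FLAG region in 47.38 Mb was fewer than at that density, while by gene 3.23% was above 1.52%. Neither difference was tested.

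Hosts were long genes. Their median length was 110.2 kb in edit_myc_FLAG, 101.5 kb in myc_FLAG and 97.3 kb in endog_myc, against 26.1 kb over all protein-coding genes, and 54.1%, 51.0% and 48.6% of hosts exceeded 100 kb, against 18.0% of all. A longer gene offers more positions to hold a region, and the part of this in the host lengths was not tested. Outside IgG, 45 host genes were common to edit_myc_FLAG and myc_FLAG (16.8% of the first list's hosts and 56.2% of the second's), 48 to edit_myc_FLAG and endog_myc (17.9% and 53.3%) and 34 to myc_FLAG and endog_myc (42.5% and 37.8%). In all, 29 genes held a region of all 3. A protein-coding host held 69.1% of edit_myc_FLAG regions, 64.7% of myc_FLAG and 67.4% of endog_myc regions, against 75.02% of all positions that meet the rule. In the IgG lists it was 48.7% and 45.5%.

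Many regions inside genes lay at an annotated start of some gene, coding or non-coding, a feature looked at after the lists had been seen. Outside IgG, 73 of 398 edit_myc_FLAG regions (18.3%, interval 14.8 to 22.4%) had a summit within 1000 bp of a start in the RefSeq table. So did 21 of 120 myc_FLAG regions (17.5%, 11.7 to 25.3%) and 30 of 124 endog_myc regions (24.2%, 17.5 to 32.4%). Such starts cover 1.502% of the positions that meet the rule. Among IgG-overlapping regions the shares were 6.82%, 8.89% and 8.89%, from 3 or 4 regions each. Chromosome 8, with no starts in the table, was left out of these shares. The median distance from summit to start was 123, 156 and 105 bp, and 28 of 73, 4 of 21 and 14 of 30 summits lay within 100 bp. The nearest start belonged to a protein-coding gene for 51 of 73, 10 of 21 and 25 of 30. The rule excludes only ends of protein-coding genes, so a start here can be the outer start of a non-coding gene.

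Named regions at these starts had moderate folds. In the order edit_myc_FLAG, myc_FLAG, endog_myc, the TRAF2 start region had folds of 5.55, 7.69 and 6.05, and TEDC1 had 5.80, 4.94 and 7.84. The region over the TEF window had 6.65, 6.13 and 5.38, with its summits nearer to the start of the long non-coding RNA LOC105373042 (280, 133 and 315 bp) than to that of TEF (311 bp in edit_myc_FLAG). PIK3R3, a regulatory subunit of PI3-kinase, had 4.55, 5.38 and 6.80. In these 4 genes no list was highest throughout. SIN3A, a scaffold of histone deacetylase complexes that repressors of the MAX network recruit, had a start region of 4.23 in edit_myc_FLAG and 6.76 in endog_myc and overlapped no myc_FLAG region there. PCNA, the sliding clamp of DNA replication, had 4.59 in edit_myc_FLAG only, at chr20:5120040-5120203. Outside IgG the fold of regions at starts (median 5.10, 5.45 and 5.39 in the 3 lists) differed little from that of the others (5.07, 4.87 and 5.03). Position in the host was measured for only part of these regions. The 56, 14 and 27 start regions measured lay early in their host, at a median of 15.2%, 27.4% and 15.2% of its length. The 186, 56 and 51 others measured lay at 49.4%, 60.6% and 62.2%.

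Most of these start windows held a CCAAT box, 1 of the 5 motifs searched. The others were the E-box core CACGTG, its variant CACGCG, the GC box GGGCGG and the ETS core CCGGAA. The windows run from 250 bases before to 50 after each start, both strands were searched, and each region outside IgG was given the nearest window it overlapped. CCAAT was present in 42 of 53 windows under edit_myc_FLAG regions (79.2%, interval 66.5 to 88.0%), 13 of 15 under myc_FLAG (86.7%, 62.1 to 96.3%) and 24 of 28 under endog_myc (85.7%, 68.5 to 94.3%). Over all 35116 windows the share was 34.6%, over the 14888 windows of internal starts 34.3%, and over the 3675 of those with at least 60% GC 23.5%. Windows under regions at gene ends were similar, with 72.5%, 82.7% and 82.9%. The GC box GGGCGG was also frequent, in 83.0%, 66.7% and 78.6% of the windows inside genes, against 68.2% of internal windows of at least 60% GC. Within the 74 internal windows under any target list, 72 of 127 matches (56.7%) centred between 150 and 50 bases before the start, against 42.0% of matches over all internal windows.

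The E-box was less common. CACGTG was present in 5 of 53 windows under edit_myc_FLAG regions (9.43%, interval 4.097 to 20.2%), 3 of 15 under myc_FLAG (20%, 7.05 to 45.2%) and 2 of 28 under endog_myc (7.14%, 1.98 to 22.6%). All windows gave 7.26% and internal windows of at least 60% GC gave 8.35%, both inside these intervals, and gene ends gave 10.7%, 12% and 9.71%. The 14888 windows of internal starts gave 5.19%, inside the edit_myc_FLAG and endog_myc intervals and below the myc_FLAG interval. The 74 internal windows under any target list gave 12.2% (interval 6.53 to 21.5%), which holds 7.26% and 8.35% but not 5.19%. Among the windows with an E-box was that of DYRK1A printed above, where the box lay 179 bases before the start. The endog_myc region that holds this box had a fold of 6.20. The edit_myc_FLAG region, which overlaps the window but not the box, had 4.59. The E-box of the TEF window printed above began 193 bases before the start. It lies within the regions of all 3 target lists there. It is counted only under endog_myc, because the regions of the FLAG lists were given another window. A match was counted anywhere in an overlapped window, also beyond the region itself. It is a description of the letters in these windows, and the windows cover a small part of the regions inside genes.

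**Figure D4:**
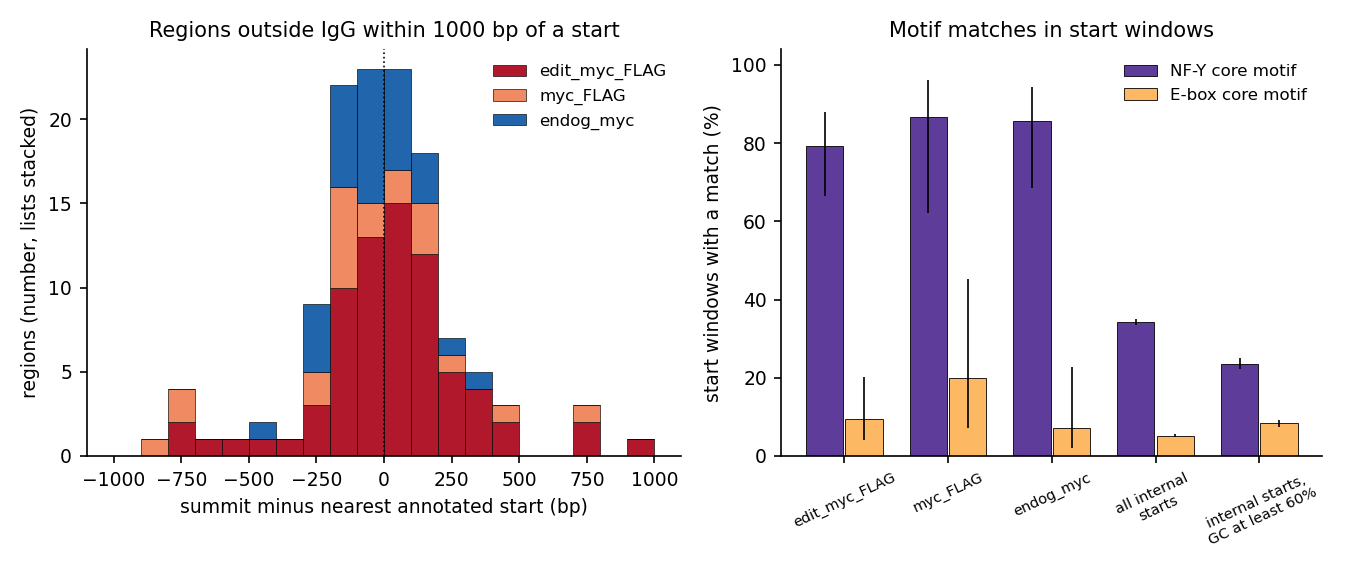
Left, distance from summit to the nearest annotated start (x axis, bp) for regions inside genes outside IgG within 1000 bp of one (y axis, number, lists stacked). Right, share of start windows (y axis, %) with the NF-Y core motif CCAAT and the E-box core CACGTG under each list's regions, over all internal starts and over those of at least 60% GC, with 95% Wilson intervals; the NF-Y motif is at 79.2 to 86.7% under the lists and 34.3% over all internal starts.

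Regions inside genes were also frequent near the outermost annotated genes of chromosomes, again looked at after the lists had been seen. Within 1 Mb of the outermost annotated gene lay 91 of 459 edit_myc_FLAG regions (19.8%, interval 16.4 to 23.7%). In myc_FLAG it was 42 of 170 (24.7%, 18.8 to 31.7%) and in endog_myc 44 of 172 (25.6%, 19.6 to 32.6%), while 1.63% of the positions that meet the rule lie there. Background showed the same, with 14 of 39 regions in ms_IgG (35.9%) and 11 of 44 in rbt_IgG (25%). Outside IgG the shares were 18.3%, 21.6% and 23.6%, against 2.87%, 5.35% and 5.02% for regions at gene ends. Near-gene regions lay between, with 12.8%, 10.3% and 9.45%, and gene-poor regions were at 1.852%, 1.103% and 1.779%. The share of positions was worked out only for those that meet the rule. The other classes therefore have no base of their own, and enrichment over base cannot be compared between classes. Regions outside IgG in all 3 lists reached 39.5%, 37.8% and 37.8%. In edit_myc_FLAG these include regions in DUX4 and FAM120B whose overlapping myc_FLAG and endog_myc regions themselves touched IgG. Whether base composition or repeats take part in the nearness to outermost genes was not tested. Among the regions of all 3 lists near outermost genes were FOXK2, RTEL1 and BTNL9 from the strongest regions above, and PHRF1, a ring-finger protein (5.44, 9.98 and 7.98). The outermost annotated gene is not always at a chromosome end. On chromosome 13, whose short arm was left out, the FAM230C region at chr13:18211765-18212495 counted as 35.2 kb from it.

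**Figure D5:**
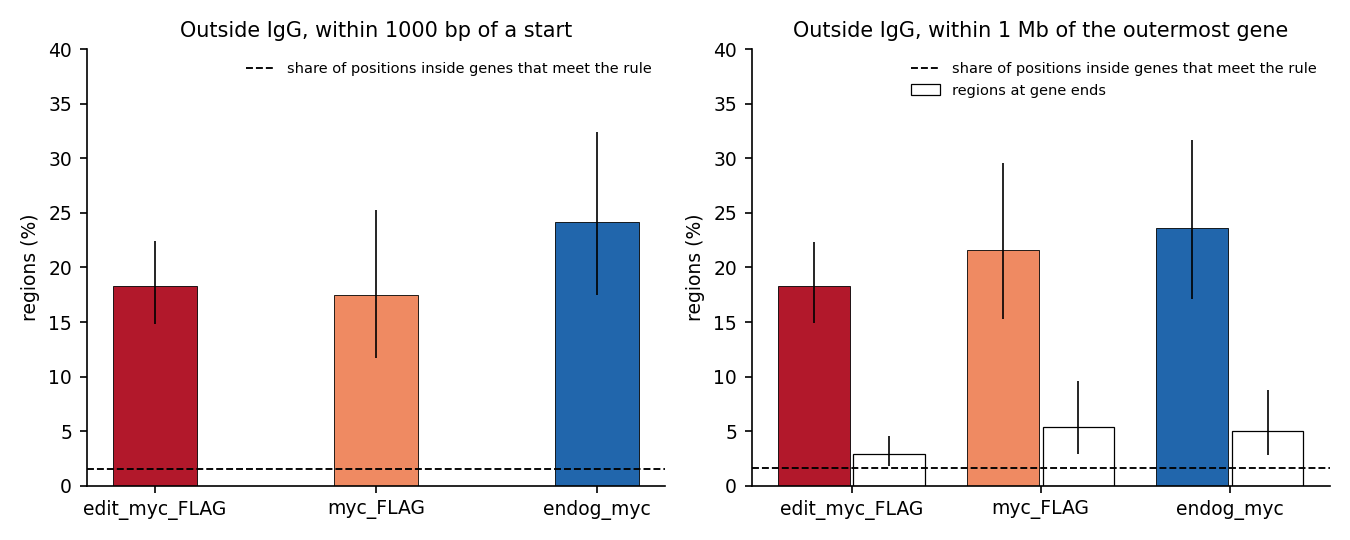
Share of regions inside genes outside IgG (y axis, %, coloured bars) within 1000 bp of an annotated start (left) and within 1 Mb of the outermost annotated gene of the chromosome (right) in each target list, with 95% Wilson intervals; white bars (right) are regions at gene ends and dashed lines the share of all positions that meet the rule. The coloured bars stand between 17.5 and 24.2% against lines at 1.502 and 1.63%.

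The limit of 1000 bp divides a continuum. The edit_myc_FLAG regions just inside it lay 1001 bp from an end of MCTP1 (fold 4.76) and 1018 bp from an end of FER, a tyrosine kinase (fold 5.96). Just outside it, a region lay 973 bp from a gene end in SALL4, a zinc finger transcription factor (fold 4.43).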

How the data were processed

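Peak lists from CUT&RUN of HEK293T cells were analysed as deposited, 1 list per group. The build was hg38 and the tools were MACS3 3.0.0b1, HOMER 4.10, SAMtools 1.15 and Bowtie2 2.4.5, per the submitters' processing notes, which give neither roles nor options. The deposited fold enrichment is the peak caller's ratio at the summit, the deposited −log10 q is its adjusted significance, and the deposited score is a whole number made from that −log10 q, per the peak list layout. The level at which libraries were merged is not stated there. A fold or q is the authors' value for 1 peak from a separate call per list, so values of different lists were set side by side without a test. Depth is unknown.

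Summits were placed against the spans of RefSeq genes (GRCh38.p14), 1-based. Of its genes, 718 are out of position order and 25 members have only such hosts. The rule was applied as written. Regions overlapped when they shared at least 1 bp. Classes were compared by two-sided Fisher's exact test within a list, with Benjamini-Hochberg adjustment over 9 tests in each of 2 families at 0.05 (Python 3.11.15, scipy 1.17.1, pandas 2.3.3, numpy 2.4.6), tested on simulated lists. Lists were not tested against each other. A planned E-box test around summits was not run, since no genome was used here. Motifs were searched in the RefSeq windows of 35116 starts of 27305 genes.

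Regions were named by rule: the 12 of highest mean fold rank in all 3 target lists outside IgG, the 4 of highest fold in each list alone, the 5 of highest edit_myc_FLAG fold in both IgG lists, the 5 hosts with most separate regions (with ties), list genes that host a region, and the 2 regions on each side of the limit. Some items that these rules name, and 1 gene list, are not reported here. Other named regions were chosen after their values were seen. The members and the gene lists were chosen with earlier results of these data known.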

Additional observations from a re-analysis of the deposited data

How the results depend on the processing

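Of 261 values recomputed under other settings, 201 kept their direction and side of the threshold or moved little, 12 lost a call, 7 gained one, 15 changed sign and 26 moved. The higher IgG overlap inside genes than at gene ends kept its call in the 3 target lists under all 8 settings, and the 12 named regions of all 3 lists stayed inside genes and outside IgG in all 8. The cause of the changes below was not tested.

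The share of regions inside genes in edit_myc_FLAG was 24.15% with gene ends out to 2000 bp, 21.84% with 5000 bp, 18.73% in protein-coding genes only, 21.28% with −log10 q of at least 5 and 23.78% with lists cut to equal length by fold. It was 14.86% (5000 bp), 12.31% (protein-coding) and 13.76% (q) in myc_FLAG, 13.46%, 12.06% and 14.55% in endog_myc, and, in protein-coding genes only, 10.70% in ms_IgG and 11.32% in rbt_IgG.

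The IgG overlap inside genes minus that of gene-poor regions changed sign in myc_FLAG with 2000 bp (0.1121 percentage points) and the q minimum (6.018), and in endog_myc with 2000 bp (1.204), 5000 bp (0.4199), the q minimum (2.022) and IgG regions widened by 500 bp (0.02899). Against near-gene regions the call was lost with the q minimum in myc_FLAG (-10.30) and endog_myc (-12.13).

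For sharing, inside genes minus gene ends lost its call in edit_myc_FLAG in protein-coding genes only (-7.232), with 50% overlap (-5.354), equal list length (-5.431), out-of-order genes left out (-6.910) and IgG regions kept (-0.3324), and changed sign with the q minimum (0.9591). In myc_FLAG it lost its call in protein-coding genes only (-14.41), with the q minimum (-2.875), 50% overlap (-10.40), equal list length (-14.57) and IgG kept (-6.725). In endog_myc it changed sign with the q minimum (9.572) and IgG kept (2.953). Against near-gene regions, edit_myc_FLAG gained a call with 2000 bp (-9.890), 5000 bp (-10.71), the q minimum (-20.36) and IgG kept (-19.99), myc_FLAG with the q minimum (-17.86) and IgG kept (-17.02), and endog_myc with IgG kept (-11.48), while myc_FLAG changed sign with equal list length (1.271). Against gene-poor regions, myc_FLAG changed sign with the q minimum (4.089) and endog_myc with 2000 bp (-0.5386), 5000 bp (-0.7297), protein-coding genes only (-1.506) and equal list length (-3.629).

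Host genes numbered 91 in edit_myc_FLAG, 42 in myc_FLAG and 48 in endog_myc with the q minimum, and 148 in edit_myc_FLAG with equal list length, and the median edit_myc_FLAG host length was 135.9 kb with 5000 bp. The median fold was 6.645, 6.570 and 6.688 with the q minimum and 6.156 in edit_myc_FLAG with equal list length. Within 3 Mb of the outermost annotated gene lay 32.46%, 41.18% and 38.95% of regions, against 4.796% of positions, and CCAAT was in 94.44% of the endog_myc windows that held the summit.

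No paired analysis was possible because the 3 libraries of each target were merged into 1 list before deposit, and no library was left out in turn for the same reason. The planned E-box test and its settings were not run, since no genome was used. Alternatives without out-of-order genes, and those for starts, outermost genes and CCAAT windows, were chosen after seeing the data.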
